A study of Rattus norvegicus with 6 samples.

Results

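The Hippo pathway was represented by a set of 10 genes: the coactivator genes Yap1 and Wwtr1, the TEAD transcription factor genes Tead1, Tead2, Tead3 and Tead4, the kinase genes Lats1 and Lats2, and the target genes Ctgf and Cyr61. They were found by gene symbol, and 9 of the 10 had a row among the 18746 genes of the read count table. Tead2 was not analysed here. All 9 passed the filter on low counts and were among the 12420 genes tested. The study names the cells as PC12, a line established from a pheochromocytoma of the rat adrenal medulla. They were transfected with lipid reagent and either siNQO1 (3 samples) or the control siCtrl (3 samples), and polyadenylated RNA was sequenced. The methods of the study describe both reagents as siRNA duplexes, whereas the sample labels speak of an shRNA and a control plasmid, and both sources divide the samples alike. Neither untransfected cells nor a further reagent against Nqo1 were among the samples used here, so an effect of Nqo1 loss and an off-target effect of the reagent cannot be told apart. The study calls the samples of a group biological replicates, without describing how their cultures were kept apart, and the p-values measure how these samples spread.

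The Hippo pathway couples cell contact and cytoskeletal tension to transcription. The MST kinases activate the LATS kinases, which phosphorylate YAP and its paralog TAZ (encoded by Wwtr1) and thereby hold them in the cytoplasm or mark them for degradation. Unphosphorylated YAP and TAZ enter the nucleus, bind TEAD factors and switch on genes such as Ctgf and Cyr61, which encode secreted matricellular proteins. In the peripheral nervous system this pathway is known for its part in Schwann cell growth and myelination. Much of its control is by phosphorylation, which RNA levels do not show.

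The libraries held 28873824 to 39467230 reads counted in genes. Nqo1 itself was at 22.6% of its control level by mean FPKM (fragments mapped to a transcript, scaled to its length in kilobases and to the depth of the library), 344.8 ± 24.1 in siCtrl against 77.9 ± 2.79 in siNQO1 (SD, n = 3 each). The siCtrl replicate 2 stood apart from the other siCtrl libraries, since leaving it out took the number of genes called from 1571 to 4200. The share of reads from mitochondrial genes was 4.25% and 5.19% in siCtrl replicates 1 and 3, but 6.40% in siCtrl replicate 2, beside 6.01% to 6.53% in siNQO1, and its part in the results was not tested. For named genes of the set and of the lists, calls that turn on siCtrl replicate 2 are given with and without it. Defining chromaffin genes of PC12 cells were near 0 in every library: of 12 markers 10 had a row, each stayed under 1 FPKM throughout, and their sum lay between 0.81 and 0.93 FPKM in siCtrl and between 0.61 and 0.68 FPKM in siNQO1. Tyrosine hydroxylase, Th, reached 0.04 to 0.09 FPKM, and Ddc was listed at 0 in all libraries but siCtrl replicate 1. A list of 8 Schwann cell markers, of which 7 had a row, summed to between 574.4 and 651.1 FPKM in siCtrl and to between 549.0 and 551.4 FPKM in siNQO1, and Sox10 alone was at 192.5 to 232.8 FPKM. Of these 7, all tested, 2 were higher and 2 lower in siNQO1, among them Pmp22 (log2 fold change 0.28, adjusted p = 0.0164 from edgeR), S100b and Erbb3 (-0.45 and -0.43, adjusted p = 0.00329 and 0.00583). Lists for fibroblasts, macrophages and endothelial cells summed to 97.8 to 113.8, 22.0 to 25.1 and 3.12 to 3.54 FPKM over all libraries, most of it from Pdgfra and Twist1 in the first and Cd14 in the second. Of the genes tested on these lists (6, 3 and 3), Pdgfrb was higher in siNQO1 (log2 fold change 0.45, adjusted p = 0.0160 from edgeR) and the others did not pass, nor did the 2 chromaffin genes that could be tested. The Pdgfrb call ended without siCtrl replicate 3 or any 1 siNQO1 library (highest adjusted p = 0.0921 from edgeR) and in limma on FPKM, and the Pmp22 call ended without siNQO1 replicate 1 or 2 (highest adjusted p = 0.0698 from edgeR). In the fit without siCtrl replicate 2, Sox10 passed as lower (log2 fold change -0.17, adjusted p = 0.00785 from edgeR). The chromaffin gene Gata3 was also lower there (-0.88, adjusted p = 0.0458 from edgeR). The fibroblast genes Col1a1 (0.78, adjusted p = 0.0343) and Postn (0.51, adjusted p = 0.0033, both from edgeR) were higher in that fit. Col1a1 was low in level, at 0.21 to 0.37 FPKM in siCtrl and 0.38 to 0.56 FPKM in siNQO1. The more abundant Pdgfra (-0.11, adjusted p = 0.0833) and Twist1 (-0.17, adjusted p = 0.0775, both from edgeR) did not pass in that fit. Of all genes tested, 33.3% passed in it. The part of these markers in the results that follow was not tested, and in bulk RNA fewer cells of a kind and less RNA per cell cannot be told apart. The name PC12 is used as the labels give it, and the levels of the chromaffin markers do not bear it out.

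None of the 9 Hippo pathway genes passed the test between siNQO1 and siCtrl at an adjusted p under 0.05 in the quasi-likelihood test of edgeR, with adjustment over all genes tested. In the same test 12.6% of all genes passed, 5.27% as higher and 7.38% as lower. At an unadjusted p under 0.05 there were 2 of the 9, Tead1 and Yap1, against 29.0% of all genes. The groups did not overlap in normalised log2 CPM for 3 of the 9, Yap1, Wwtr1 and Tead1, against 34.2% of all genes. DESeq2, the exact test of edgeR and limma on FPKM also called none, and limma voom called 1, Tead1 (adjusted p = 0.0440). By the point estimate 6 genes were higher and 3 lower, with a median log2 fold change of 0.05 beside 0.01 for all genes tested. The median size of the log2 fold change, regardless of sign, was 0.10 for the 9 genes and 0.16 for all genes tested.

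**Figure D1:**
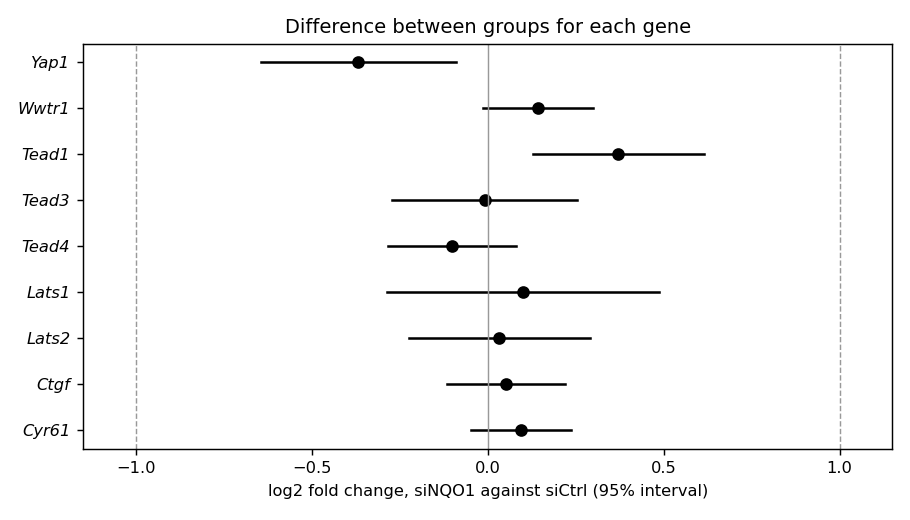
Log2 fold change of each gene in siNQO1 against siCtrl on the horizontal axis, from the quasi-likelihood test of edgeR on 3 libraries a group. Points are estimates, bars are 95% intervals and dashed lines mark a 2-fold change. All intervals lie inside the dashed lines, from -0.65 at the lower bound of Yap1 to 0.61 at the upper bound of Tead1.

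The 95% intervals of all 9 genes lay within a 2-fold change in either direction. The lowest bound was a ratio of 0.640, in Yap1, and the highest a ratio of 1.53, in Tead1. For Ctgf the interval ran from 0.924 to 1.16 and for Cyr61 from 0.967 to 1.18. The widest interval was that of Lats1, from 0.819 to 1.4.

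The coactivators differed in level and in the sign of their difference. Where 3 values are listed for a group, they stand for replicates 1, 2 and 3. Yap1 (ENSRNOG00000005933, chromosome 8) was at 7.44, 6.95 and 6.85 FPKM for the siCtrl group and at 4.50, 5.77 and 6.03 FPKM for the siNQO1 group. Every siNQO1 library lay below every siCtrl library, and siNQO1 replicate 1 was the lowest. The mean went from 7.08 ± 0.316 FPKM (SD, n = 3) to 5.43 ± 0.819 (SD, n = 3), a log2 fold change of -0.37 (standard error 0.12) that did not pass (adjusted p = 0.0846 from edgeR). It rested on 268 to 436 reads per library.

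Wwtr1 (ENSRNOG00000016617, chromosome 2), which encodes TAZ, was the more abundant coactivator transcript in each library. It was at 21.2, 20.3 and 20.4 FPKM for the siCtrl group and at 20.9, 22.2 and 24.5 FPKM for the siNQO1 group. The groups overlapped in FPKM, with siNQO1 replicate 1 below siCtrl replicate 1, and just failed to overlap in log2 CPM after TMM scaling. The difference was 0.14 on the log2 scale, with a standard error of 0.07 (adjusted p = 0.210 from edgeR).

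Set against each other on the FPKM scale, Yap1 made up 26.0%, 25.5% and 25.1% of the summed Yap1 and Wwtr1 level for the siCtrl group, and 17.7%, 20.6% and 19.7% for the siNQO1 group. The siNQO1 shares were all below the siCtrl shares. The means were 25.6% ± 0.449 (SD, n = 3) and 19.4% ± 1.50 (SD, n = 3), which is a difference of -6.20 percentage points. An exact permutation test, two-sided, returned p = 0.10, below which 3 samples against 3 cannot go, so this test could not reach 0.05 at this number of samples.

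**Figure D2:**
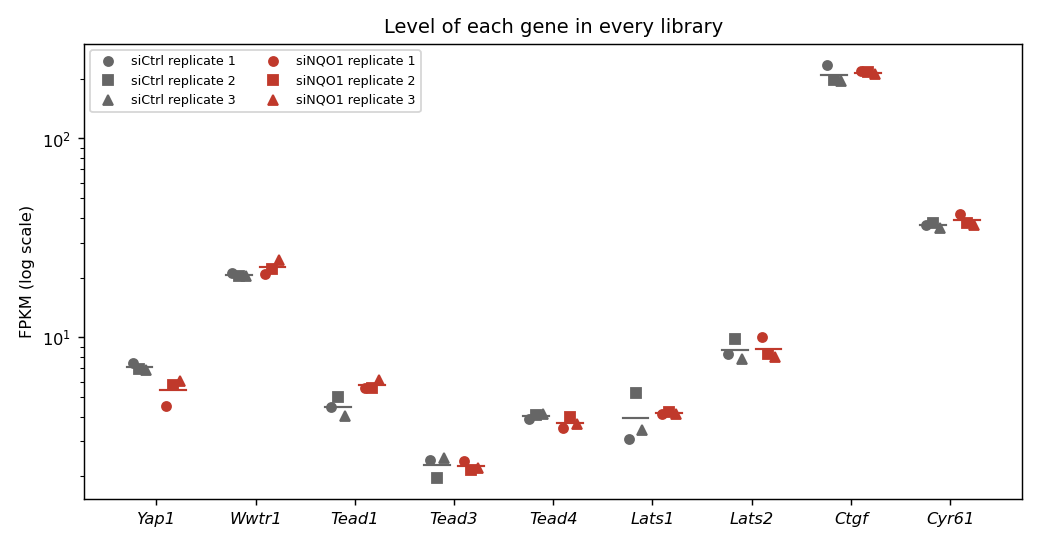
Deposited FPKM of the 9 genes on a log axis. Gray symbols are siCtrl and red symbols siNQO1 libraries, symbol shapes give the replicate number, and horizontal lines are group means. The Yap1 values of siNQO1 (4.50 to 6.03) sit below those of siCtrl (6.85 to 7.44), the Tead1 values of siNQO1 (5.56 to 6.10) sit above those of siCtrl (4.02 to 4.99), and the siCtrl replicate 2 value of Lats1 (5.25) stands above the 5 other libraries.

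The TEAD factors carry YAP and TAZ to DNA, since neither coactivator binds it alone. Tead1 (ENSRNOG00000015488, chromosome 1) was at 4.45, 4.99 and 4.02 FPKM for the siCtrl group and at 5.56, 5.59 and 6.10 FPKM for the siNQO1 group. The groups did not overlap, with every siNQO1 library the higher. The mean went from 4.49 ± 0.486 FPKM (SD, n = 3) to 5.75 ± 0.304 (SD, n = 3). With a log2 fold change of 0.37 (standard error 0.11), Tead1 lay next to the threshold without passing it (adjusted p = 0.0545 from edgeR), on 269 to 507 reads per library.

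Tead4 (ENSRNOG00000005608, chromosome 4), the member known from the trophoblast, was at 3.91, 4.06 and 4.11 FPKM for the siCtrl group and at 3.49, 3.98 and 3.69 FPKM for the siNQO1 group. The groups overlapped through siNQO1 replicate 2, and the log2 fold change of -0.10 (standard error 0.08) did not pass (adjusted p = 0.442 from edgeR). Tead3 (ENSRNOG00000000506, chromosome 20) was the lowest of the 9 genes per length, at 1.96 to 2.49 FPKM in siCtrl and 2.16 to 2.40 FPKM in siNQO1. The siNQO1 libraries all lay inside the siCtrl range. The difference was -0.01 on the log2 scale, with a standard error of 0.12 (adjusted p = 0.970 from edgeR), with a sign that flipped under upper-quartile scaling.

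Within the summed FPKM of Tead1, Tead3 and Tead4, the Tead1 share was 41.3%, 45.3% and 37.8% for the siCtrl group and 48.6%, 47.7% and 50.9% for the siNQO1 group. The Tead4 share was 36.3%, 36.9% and 38.7% in siCtrl and 30.5%, 33.9% and 30.8% in siNQO1. Neither share overlapped between the groups, Tead1 being higher in siNQO1 by 7.53 percentage points and Tead4 differing by -5.57 points. An exact permutation test, two-sided, returned p = 0.10 for each, again the lowest attainable, and p = 0.40 for the Tead3 share. Shares of 1 sum depend on each other, and over the 5 shares tested in the 3 families the Benjamini-Hochberg adjusted p of Tead1, Tead4 and Yap1 was 0.167 each.

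**Figure D3:**
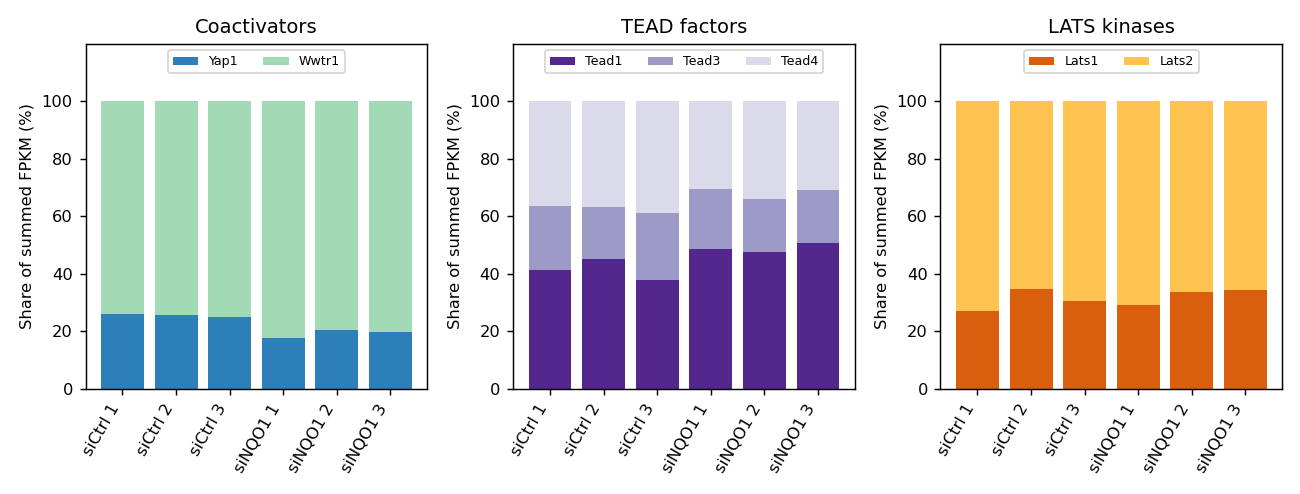
Share of each paralog in the summed FPKM of the genes of its panel, in percent, for each library. The left panel shows Yap1 and Wwtr1, the middle panel Tead1, Tead3 and Tead4 (without Tead2) and the right panel Lats1 and Lats2. The Yap1 share is 25.1% to 26.0% in siCtrl and 17.7% to 20.6% in siNQO1, and the Tead1 share is 37.8% to 45.3% and 47.7% to 50.9%.

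Lats1 and Lats2 encode the kinases that phosphorylate YAP and TAZ. Lats1 (ENSRNOG00000014916, chromosome 1) was at 3.08, 5.25 and 3.43 FPKM for the siCtrl group, whereas the siNQO1 group lay close together at 4.13, 4.21 and 4.14 FPKM. The siCtrl replicate 2 was above all siNQO1 libraries and the other siCtrl libraries were below them. The coefficient of variation was 29.7% in siCtrl, the largest of the 9 genes, and 1.05% in siNQO1, the smallest. With all libraries Lats1 differed by 0.10 on the log2 scale, with a standard error of 0.17 (adjusted p = 0.741 from edgeR). Without siCtrl replicate 2 it was 0.36 and passed (adjusted p = 0.00231 from edgeR).

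Lats2 (ENSRNOG00000056343, chromosome 15), itself known as a gene that YAP and TAZ switch on in a feedback loop, was at 8.28, 9.82 and 7.82 FPKM for the siCtrl group and at 10.1, 8.24 and 7.94 FPKM for the siNQO1 group. Highest were siNQO1 replicate 1 and siCtrl replicate 2, so that the groups overlapped almost fully. The difference was 0.03 on the log2 scale, with a standard error of 0.11 (adjusted p = 0.878 from edgeR). The Lats1 share of the summed FPKM of both kinases averaged 30.8% ± 3.87 in siCtrl and 32.4% ± 2.87 in siNQO1 (SD, n = 3 each, exact two-sided permutation p = 0.70, and a negative difference without siCtrl replicate 1).

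The target genes were read beside their upstream sequence, which holds the letters that TEAD factors recognise. The 250 bases before the start of each gene are shown from RefSeq (build GRCr8, with capitals for GGAATG, the core of the TEAD site, or its reverse complement CATTCC), Ctgf being listed there as Ccn2 at chr1:22624615-22624864 and Cyr61 as Ccn1 at chr2:237225690-237225939, both on the minus strand and written 5′ to 3′ toward the gene.
Ctgf: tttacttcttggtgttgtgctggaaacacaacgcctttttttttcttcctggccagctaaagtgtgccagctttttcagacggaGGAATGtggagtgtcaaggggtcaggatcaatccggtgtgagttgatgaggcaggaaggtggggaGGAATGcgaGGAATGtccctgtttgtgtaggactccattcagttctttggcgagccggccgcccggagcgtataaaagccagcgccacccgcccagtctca
Cyr61: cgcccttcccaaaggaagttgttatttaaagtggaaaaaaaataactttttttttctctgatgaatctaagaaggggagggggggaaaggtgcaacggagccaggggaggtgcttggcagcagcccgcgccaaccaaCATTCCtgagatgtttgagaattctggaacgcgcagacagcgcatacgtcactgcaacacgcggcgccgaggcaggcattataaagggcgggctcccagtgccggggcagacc
Ctgf held 3 matches, the first bases of which lie 166, 101 and 92 bases before the start, and Cyr61 held 1, at 113 bases before it. Of all 33469 sequences of this length in the RefSeq set, 12.1% held at least 1 match on either strand and 0.0807% held 3 or more. For Yap1, Wwtr1, Tead3 and Lats1 the table also gave a sequence, with 1 match in Yap1 and none in the other three. A match describes these letters and is not evidence of binding in these cells.

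Ctgf (ENSRNOG00000015036, chromosome 1) encodes connective tissue growth factor. It was the most abundant of the 9 genes, at 235, 198 and 194 FPKM for the siCtrl group and at 218, 216 and 210.2 FPKM for the siNQO1 group. The siNQO1 libraries all fell inside the siCtrl range, whose upper end was set by siCtrl replicate 1. The means were 209.0 ± 22.6 FPKM (SD, n = 3) and 214.5 ± 3.87 (SD, n = 3), with a log2 fold change of 0.05 (standard error 0.07, adjusted p = 0.681 from edgeR). Between 21130 and 25989 reads per library stood behind these values.

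Cyr61 (ENSRNOG00000014350, chromosome 2), which encodes a cysteine-rich inducer of angiogenesis of the same CCN family, was at 36.9, 37.5 and 35.6 FPKM for the siCtrl group and at 41.8, 37.6 and 36.9 FPKM for the siNQO1 group. The siNQO1 replicate 1 was above the other libraries and the remaining siNQO1 values lay within or next to the siCtrl range. The difference was 0.09 on the log2 scale, with a standard error of 0.06 (adjusted p = 0.358 from edgeR).

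Ordered by mean FPKM over the 6 libraries, the genes ran from Ctgf (211.8) and Cyr61 (37.7) through Wwtr1 (21.6), Lats2 (8.70), Yap1 (6.26), Tead1 (5.12), Lats1 (4.04) and Tead4 (3.87) to Tead3 (2.27). Ctgf lay above 96.6% of the genes tested and Tead3 above 27.4%. The ranges over libraries of Ctgf, Cyr61, Wwtr1 and Lats2 did not overlap with those of their neighbours in this order, and neither did those of Tead4 and Tead3. The ranges of Yap1 and Tead1, of Tead1 and Lats1 and of Lats1 and Tead4 overlapped. These ranges pool siCtrl and siNQO1, and each of these pairs stood apart within one group and overlapped in the other. In siCtrl, Yap1 (6.85 to 7.44 FPKM) lay above Tead1 (4.02 to 4.99). In siNQO1, Tead1 (5.56 to 6.10) lay above Lats1 (4.13 to 4.21), and Lats1 above Tead4 (3.49 to 3.98). The order rests on the transcript lengths the authors used. In siCtrl replicate 1, 1 FPKM stood for 51.2 reads in Yap1, 54.6 in Wwtr1 and 60.5 in Tead1, but for 174.2 in Tead4, 195.0 in Tead3 and 235.1 in Lats1. Tead1, the first of the TEAD genes per length, thus had the fewest reads of them in siCtrl.

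When single libraries were left out, the calls among the 9 genes turned on siCtrl replicate 2. Without it 3 of the 9 passed, Yap1 (log2 fold change -0.38, adjusted p = 0.0298 from edgeR), Tead1 (0.45, adjusted p = 0.00465) and Lats1 (0.36, adjusted p = 0.00231). In that fit 33.3% of all genes tested passed as well, so the share among the 9 genes was that of the background. With any 1 of the other 5 libraries left out instead, none of the 9 passed. Yap1 kept a negative value, from -0.45 to -0.27, and Tead1 a positive one, from 0.31 to 0.45, whichever library was absent. Lats1 changed sign without siCtrl replicate 1 (log2 fold change -0.07).

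**Figure D4:**
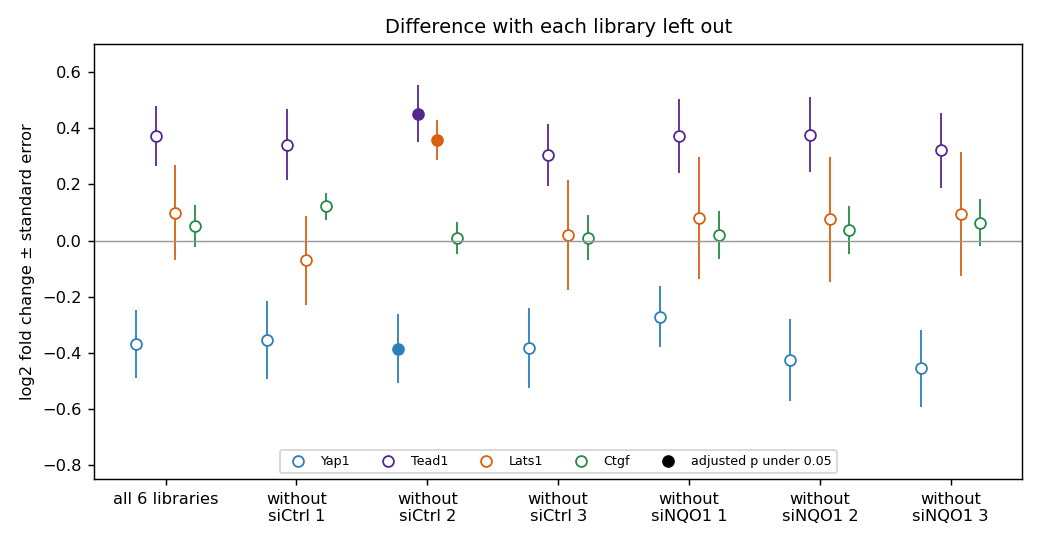
Log2 fold change (vertical axis) of Yap1, Tead1, Lats1 and Ctgf with all libraries and with each library left out, with the standard error from edgeR as bars. Filled points have an adjusted p under 0.05. Filled points occur only without siCtrl replicate 2, for Yap1 (-0.38), Tead1 (0.45) and Lats1 (0.36), and Ctgf stays between 0.01 and 0.12.

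Other genes of the pathway were described with 7 lists, which held 99 different genes, of which 96 had a row and 85 were tested. Of these, 3 were higher, 8 were lower and 74 did not pass, so 12.9% were called beside 12.6% of all genes. The median log2 fold change was -0.02. The share called was thus close to that of the background. It covers the listed genes only, as the lists leave out some paralogs of their genes. Among those left out, Wwc3, a paralog of the listed Wwc1 and Wwc2, was lower (log2 fold change -0.89, adjusted p = 0.000384 from edgeR). So was Ppp2r1b, a paralog of the listed Ppp2r1a (-0.52, adjusted p = 0.00144 from edgeR). Ppp2r1a itself did not pass with all libraries (log2 fold change -0.10, adjusted p = 0.313 from edgeR). It passed without siCtrl replicate 2 (-0.17, adjusted p = 0.00411 from edgeR). Wwc3 and Ppp2r1b were picked after their values were seen, and other genes outside the lists are not described. Without siCtrl replicate 2, 17 of the 85 list genes tested were higher and 22 lower (45.9% called, beside 33.3% of all genes). The account that follows concerns single genes in the fit of all 6 libraries.

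Among 22 genes of the kinase cassette and its activators, 2 were lower and 20 did not pass (median log2 fold change 0.05). Nf2 encodes merlin, a membrane-linked scaffold that activates the LATS kinases and is a tumor suppressor of Schwann cells. It was at 18.4, 18.2 and 18.3 FPKM for the siCtrl group and at 11.9, 12.1 and 11.6 FPKM for the siNQO1 group. The groups were far apart beside their spread, and Nf2 fell by 0.61 on the log2 scale (standard error 0.05, adjusted p = 0.000454 from edgeR). Stk38, which encodes an NDR kinase related to the LATS kinases, was at 7.18, 6.25 and 6.26 FPKM in siCtrl and at 4.05, 4.30 and 4.37 FPKM in siNQO1. It also fell by 0.61 on the log2 scale (standard error 0.10, adjusted p = 0.00714 from edgeR). Both kept their calls whichever library was left out, with highest adjusted p of 0.00631 and 0.0390.

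Among 10 brakes on this cassette, the STRIPAK phosphatase complex and LIM proteins, 1 was higher, none was lower and 9 did not pass (median -0.05). Sike1, a STRIPAK adaptor, rose by 0.22 on the log2 scale, from 14.4 ± 0.344 FPKM (SD, n = 3) to 16.7 ± 0.288 (SD, n = 3) (adjusted p = 0.0400 from edgeR). DESeq2, the exact test of edgeR and the fit with no filter on low counts did not call it. Of 14 junction and polarity genes tested, 13 did not pass and 1 was called, as lower (median 0.07).

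Of 11 cofactor and turnover genes tested, 2 were lower and 9 did not pass (median -0.11). Both were 14-3-3 genes, whose proteins hold phosphorylated YAP and TAZ in the cytoplasm. Ywhag went from 108.1 ± 2.96 FPKM (SD, n = 3) to 84.6 ± 2.64 (SD, n = 3) and fell by 0.34 on the log2 scale (standard error 0.05, adjusted p = 0.00494 from edgeR). Ywhab went from 111.9 ± 3.23 FPKM (SD, n = 3) to 93.8 ± 1.90 (SD, n = 3) and fell by 0.24 on the log2 scale (standard error 0.05, adjusted p = 0.0121 from edgeR). Both kept their calls whichever library was left out. The other 14-3-3 genes tested, Ywhae, Ywhah, Ywhaq and Ywhaz, did not pass and had log2 fold changes of -0.09, -0.14, -0.08 and -0.19. Without siCtrl replicate 2, Ywhaz passed (-0.15, adjusted p = 0.00834 from edgeR) and the other three did not.

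The genes known from other cells as further YAP and TAZ targets moved in both directions, with 2 higher, 2 lower and 14 not passing of 18 tested (median -0.01). Axl, which encodes a receptor tyrosine kinase for GAS6, was the most abundant of them at 151.5, 140.4 and 142.1 FPKM for the siCtrl group and at 102.0, 97.6 and 99.2 FPKM for the siNQO1 group. The groups stood well apart. Axl fell by 0.52 on the log2 scale (standard error 0.05, adjusted p = 0.000803 from edgeR) and kept its call whichever library was left out, with a highest adjusted p of 0.00852. Nt5e, which encodes the nucleotidase CD73, went from 3.98 ± 0.325 FPKM (SD, n = 3) to 3.0 ± 0.205 (SD, n = 3) and fell by 0.39 on the log2 scale (adjusted p = 0.0377 from edgeR), a call that limma on FPKM did not make. Gadd45a, a gene of the DNA damage response, rose by 0.39 (adjusted p = 0.0107) and the RNA-binding protein gene Rbms3 by 0.49 (adjusted p = 0.0137), both on the log2 scale and from edgeR. Gadd45a was at 46.4 ± 4.70 FPKM in siCtrl and 60.2 ± 1.80 in siNQO1, and Rbms3 at 7.39 ± 0.567 and 10.3 ± 0.660 (SD, n = 3 each). Fstl1, second in abundance, was not called (-0.11 on the log2 scale, adjusted p = 0.144 from edgeR), but was without siCtrl replicate 2 (-0.12, adjusted p = 0.0368).

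Of the other CCN genes only Wisp1 was tested, and it did not pass (log2 fold change 0.55, adjusted p = 0.0779 from edgeR), at 0.58 to 0.83 FPKM in siCtrl and 0.84 to 1.12 FPKM in siNQO1. It passed without siCtrl replicate 2 (0.72, adjusted p = 0.00624 from edgeR). Nov, Wisp2 and Wisp3 stayed at or under 0.13 FPKM. SRF with its MRTF coactivators shares targets with YAP, Ctgf and Cyr61 among them. Of 12 SRF and MRTF targets tested, Vcl, which encodes the focal adhesion protein vinculin, fell by 0.19 on the log2 scale (adjusted p = 0.0393 from edgeR) and 11 did not pass (median -0.02). The call of Gadd45a ended whichever siNQO1 library was left out. The call of Nt5e ended when siCtrl replicate 3 or any siNQO1 library was left out, and those of Sike1, Rbms3 and Vcl ended with the loss of each library other than siCtrl replicate 2. Over these fits the highest adjusted p from edgeR was 0.0908, 0.153, 0.176, 0.0835 and 0.114 for Gadd45a, Nt5e, Sike1, Rbms3 and Vcl.

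**Figure D5:**
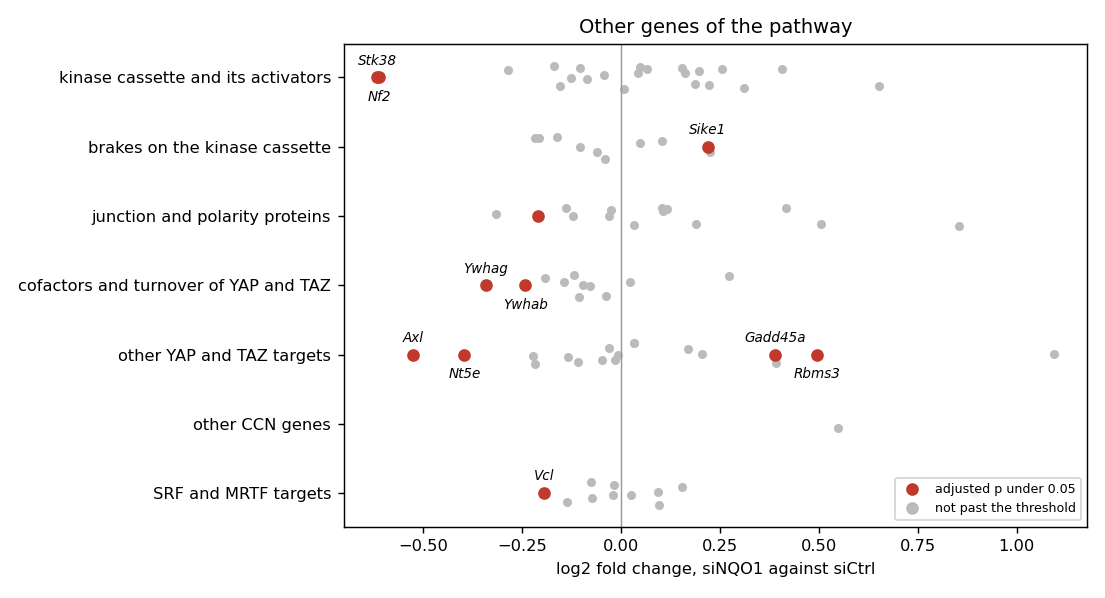
Log2 fold change of each tested gene of the 7 lists (horizontal axis, siNQO1 against siCtrl, edgeR), with 1 row of points a list. Red points passed an adjusted p of 0.05, with names for those described in the text, and gray points did not. Of 85 different genes 11 are red, with Stk38, Nf2 (-0.61 each) and Axl (-0.52) at the lower end and Rbms3 (0.49) at the upper end.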

How the data were processed

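Polyadenylated RNA of 3 siNQO1 and 3 siCtrl samples was sequenced with a strand-specific kit. Per the study's methods, the authors cleaned the reads and placed them on the RGSC6 genome with TopHat2, keeping reads with 1 position only. Besides TopHat2, bcl2fastq and edgeR appear in the processing notes of the submitters. The counts the authors deposited are whole reads per gene that were not normalized. The FPKM values they deposited are scaled by the authors to transcript length and mapped reads. Neither the counting tool and its strand setting nor the annotation version is known here, and overlapping or antisense genes may therefore share reads.

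The tests used edgeR 4.0.16 under R 4.3.3, with filterByExpr as the filter on low counts, TMM scaling, and the quasi-likelihood fit and test (glmQLFit, glmQLFTest) of siNQO1 against siCtrl with no block. P-values were adjusted after Benjamini and Hochberg over 12420 genes, and a gene was called at an adjusted p under 0.05 with no minimum fold. Depth was 28873824 to 39467230 reads in genes, the common biological coefficient of variation 0.109 and the median log2 fold change over every tested gene 0.01. FPKM served for levels and for shares within families, which were compared by exact two-sided permutation tests. The fits were checked on simulated counts with known changes.

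Alternatives were RLE, upper-quartile and no library scaling beyond size, no filter and a filter of 1 CPM in 3 libraries, DESeq2 1.42.0, limma 3.58.1 with voom and on log2(FPKM + 1) or log2(FPKM + 0.1), the exact test of edgeR, a replicate block, and each library left out. The numbers of the samples were not taken as pairs: the correlation of deviations between same-numbered samples was -0.04, 0.16 and 0.06. Named genes were the pathway genes themselves, Nqo1, every called gene of a list (up to 6) and the 3 further YAP and TAZ targets of highest FPKM. Wwc3, Ppp2r1b and the genes under other observations were named after their values were seen. Genes of like pattern were to be named for called members and so none were. Members and lists were chosen with earlier results of these data known. Upstream sequences came from RefSeq on GRCr8, a later build than RGSC6, and 6 of the 10 genes were matched by symbol or synonym. A few genes that the lists count are not reported here by name.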

Additional observations from a re-analysis of the deposited data

How the results depend on the processing

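Without 1 library the number of genes called ranged from 167 to 2164 as higher (654 with all) and from 351 to 2036 as lower (917 with all), with the highest counts in the absence of siCtrl replicate 2. The 9 Hippo pathway genes gave 0 to 3 calls in these fits, and 1 in limma voom. Genes of the 7 lists gave 0 to 17 higher and 5 to 22 lower calls, beside 3 and 8 with all libraries. Log2 fold changes near 0 changed sign: Tead3 (-0.01) was 0.0039 under upper-quartile scaling, 0.00028 in limma voom and -0.11 to 0.067 without 1 library, Lats1 (0.10) was -0.069 to 0.36 and Lats2 (0.03) was -0.10 to 0.13. The Lats1 share differed by -0.27 to 3.59 percentage points without 1 library. Over all alternatives Yap1 (-0.45 to -0.27), Tead4 (-0.16 to -0.08), Wwtr1 (0.07 to 0.17), Tead1 (0.30 to 0.45), Ctgf (0.01 to 0.12) and Cyr61 (0.01 to 0.13) kept their sign. Adjusted p ranged from 0.0298 to 0.191 for Yap1 and from 0.00465 to 0.214 for Tead1. With the replicate number as a block, 610 genes were higher, 740 were lower and 0 of the 9 genes were called, and Sike1, Nt5e and Vcl lost their calls (adjusted p = 0.0745, 0.0653 and 0.0629 from edgeR). Not every sample correlated best with its own number. The causes of these changes were not tested. The fewest reads, and so the largest counting error, stood behind Yap1 and Tead1.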

Other observations

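In 4 further genes of the lists, chosen after their values were seen, siCtrl replicate 2 lay far above the other siCtrl libraries and near or above the siNQO1 libraries. Taok1, which encodes a kinase that activates the MST and LATS kinases, was at 2.20, 4.76 and 2.24 FPKM in replicates 1, 2 and 3 of siCtrl and at 4.78, 4.86 and 4.69 FPKM in those of siNQO1. Stk3, which encodes the kinase MST2, was at 6.01, 9.35 and 7.13 FPKM and at 9.58, 9.60 and 8.47 FPKM in the same order. The polarity gene Mpp5 was at 1.51, 3.61 and 1.59 FPKM and at 3.46, 3.0 and 2.42 FPKM. Strn3, which encodes a STRIPAK subunit, was at 5.95, 15.9 and 6.85 FPKM and at 12.2, 9.55 and 8.82 FPKM. None passed the test with all libraries (adjusted p = 0.145 for Taok1, 0.206 for Stk3, 0.417 for Mpp5 and 0.864 for Strn3, from edgeR). All 4 passed without siCtrl replicate 2, with log2 fold changes of 1.11 for Taok1, 0.49 for Stk3, 0.94 for Mpp5 and 0.68 for Strn3 (adjusted p = 6.43e-06, 0.0021, 0.000375 and 0.00124 from edgeR). As they were picked by the height of that library, these calls largely follow from the choice and are no separate result. In that fit 33.3% of all genes and 45.9% of the list genes tested passed. Lats1 showed the same order of libraries within siCtrl.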
